A study of Mus musculus with 15 samples.

Results

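The genes described here are 9 transcription factors and co-factors that mark stages and layers of the excitatory (projection) neurons of the cerebral cortex: Eomes, Tbr1, Bcl11a, Bcl11b, Fezf2, Zfpm2, Foxp1, Foxp2 and Tle4. They were taken by name and not by a cut on their values, though earlier results of these data were known. They are 9 of 44260 genes in the allele table. All 9 lie on autosomes and all 9 were abundant enough to be tested. The material was cortical organoids at day 12 from SpretB6 lines, hybrid mouse lines with a C57Bl/6J (B6) copy and a Mus spretus (Spret) copy of each autosome. Organoids are small tissues that self-organise in culture, here started from epiblast stem cells, which is also what the tissue label names. The 3 libraries, titled C1, C2 and C3 and called libraries 1, 2 and 3 here, each hold both alleles of a gene. No drug or deletion is named for them, and lines of a single hybrid background stand for each strain. The 12 induced pluripotent stem cell samples of the series were not analysed here, nor was any library of the reverse cross, so strain and parental origin of an allele cannot be told apart.

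Projection neurons arise from radial glia, often by way of intermediate progenitors that switch on the T-box factor Eomes. Its relative Tbr1 then marks the earliest neurons. In the deep layers, Fezf2 promotes the subcerebral fate in part through Bcl11b (Ctip2), while Tbr1, Zfpm2 (Fog2), Tle4 and Foxp2 mark corticothalamic neurons. Bcl11a and Foxp1 are made in several layers and take part in choices of subtype and in migration. The alleles of a hybrid share every nucleus, so an unequal allelic ratio is measured under the same set of trans-acting factors.

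Several of these factors belong to families with similar proteins, and a read that matches exactly can be shared only where the transcripts are identical. The longest identical coding stretches of 3 pairs of relatives are shown for that reason, from GENCODE M21 transcripts (GRCm38, the assembly that mm10 names), written 5′ to 3′ in lower case. Coordinates are given for the member named first.
Eomes and Tbr1, chr9:118479521-118479534, + strand: gagatgatcatcac
Bcl11a and Bcl11b, chr11:24165098-24165120, + strand: accctggagaaacacatgaaaaa
Tle4 and Tle1, chr19:14454805-14454872, - strand: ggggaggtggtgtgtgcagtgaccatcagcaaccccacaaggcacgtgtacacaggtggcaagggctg
These runs are 14, 23 and 68 bases long. Among the compared pairs not shown, the longest run was that of Foxp1 and Foxp2, at 35 bases. Of all 50-base words in the members' transcripts, the share found in a transcript of any other gene on either strand lay between 0 for Fezf2 and Zfpm2 and 2.42% for Foxp1. No member shared such a word with the relatives compared, except Tle4 with Tle1, at 21 words of 5699. For Bcl11a the 221 shared words all came from the overlapping antisense transcript 4930538E20Rik. Reads placed with mismatches are not covered by these counts.

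The start of Eomes is shown because Eomes had the highest value per length and its window held no annotated exon. It covers chr9:118477939-118478188 on the + strand, the 250 bases before the RefSeq start (GRCm38.p6), which is B6 sequence. Capitals mark CCAAT.
Eomes: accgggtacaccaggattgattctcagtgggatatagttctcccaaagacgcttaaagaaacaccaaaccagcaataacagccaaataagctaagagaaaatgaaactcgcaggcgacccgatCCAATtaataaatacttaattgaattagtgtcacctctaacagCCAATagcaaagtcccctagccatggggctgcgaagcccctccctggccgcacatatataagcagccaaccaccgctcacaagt
The 2 CCAAT matches began 127 and 84 bases before the start. Exact words were searched on both strands in 10 windows of 7 members. They were AGGTGTGA of T-box factors, TGTTTAC of forkhead factors, CAGATG of neural bHLH factors, CCAAT, and TATAAA, 1 form of the TATA box. CCAAT was found in 4 of the 10 windows, against 33.8% of 32851 windows of the same length. The T-box, forkhead, bHLH and TATAAA words matched in 0 of the 10, against 1.12%, 3.17%, 14.4% and 12.4% of all windows. Variant forms were not searched, such as the tatataa near the end of the Eomes window, so these counts do not show that such sites are absent. Zfpm2 and Foxp2 were not matched. The Spret sequence was not used here, so no base that differs between the alleles is given.

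Values are allele-specific read numbers that the authors normalised, given as whole numbers. The columns summed to between 2413876 and 3027078 for B6 and between 2088788 and 2639912 for Spret. The number of reads behind a value is not given. Autosomal values came from Spret at 47.7%, 47.7% and 47.9% in libraries 1, 2 and 3, and over 15456 tested autosomal genes the allelic log2 ratio, Spret over B6, had a median of -0.13. This general lean toward B6 matters for small ratios, so each call of the 9 factors is also given with each library's ratios centred on the autosomal median. For other genes the centred value is given where it changed the call. Centring shifts all genes of a library alike, so it does not remove a lean that differs from gene to gene. Reads were placed on mm10, which is B6 sequence, and the part of this in any gene's ratio was not tested. Nothing in the labels says that the clones were grown on separate days, so the spread among these 3 libraries may be technical. The p-values rest only in part on a gene's own spread among the libraries. With 2 residual and 12.3 prior degrees of freedom, they rest more on the spread of other genes of similar level.

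Genes of the projection neuron list were present in all 3 libraries, at unlike levels. Summed over alleles, Neurod6 (a bHLH factor of cortical excitatory neurons) ranged from 3177 to 4871 and Neurod2 from 2015 to 2454. The general neuronal genes Map2 (a dendritic microtubule protein) and Tubb3 ranged from 8041 to 9889 and from 3106 to 3283. Emx1, Slc17a6 and Slc17a7 were lower, at 344 to 478, 423 to 610 and 219 to 347. The 7 genes summed to 20028, 19716 and 19488, not scaled for gene length. Most of each sum came from the general neuronal genes Map2 and Tubb3, so it does not measure projection neurons alone. Lists of other cells that can make some of the 9 factors had lower sums, though single genes such as Reln, at 851 to 1509, did not all. The 15 genes of the striatal and ventral forebrain list, whose neurons use Bcl11b, Foxp1 and Foxp2, summed to 490, 458 and 489 in libraries 1, 2 and 3. Within it Drd1 stood at 6 to 20, but Gad1 at 92 to 137 and Gad2 at 46 to 116. The 10 genes of early mesoderm, endoderm and pluripotent cells, stages at which Eomes is also used, summed to 107, 181 and 50. Nanog stood at 1 to 5 and Zfp42 at 0 to 1, but Pou5f1 at 57, 63 and 13, nearly all from B6. Cajal-Retzius genes, from neurons that also make Tbr1, were plainly present, with 8 genes summing to 2422, 1497 and 2141. No gene of these lists was at 0 in every library. Lists of radial glia, hem and choroid plexus, other forebrain neurons, mesenchyme and blood summed to 3563 to 4768, 687 to 3650, 395 to 630, 438 to 466 and 67 to 118.

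The levels of the 9 factors spanned a wide range. Levels were set side by side only as the sum of alleles per kb of annotated exon, and they also depend on how many sites in a gene tell the alleles apart, which is not known here. On that scale Eomes stood at 331 ± 59.6 (mean ± SD, n = 3), Bcl11a at 119 ± 15.8, Bcl11b at 97.7 ± 5.71, Tbr1 at 60.0 ± 28.3 and Fezf2 at 55.1 ± 4.90. Below them came Tle4 at 39.9 ± 18.4, Zfpm2 at 33.1 ± 12.6, Foxp1 at 20.4 ± 1.85 and Foxp2 at 4.75 ± 1.60. Of the 8 pairs of neighbours in this order, 6 had overlapping ranges over the libraries. The exceptions were Eomes, whose lowest library at 269 was above the highest of Bcl11a at 129, and Foxp1, whose lowest at 19.2 was above the highest of Foxp2 at 5.93.

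**Figure D1:**
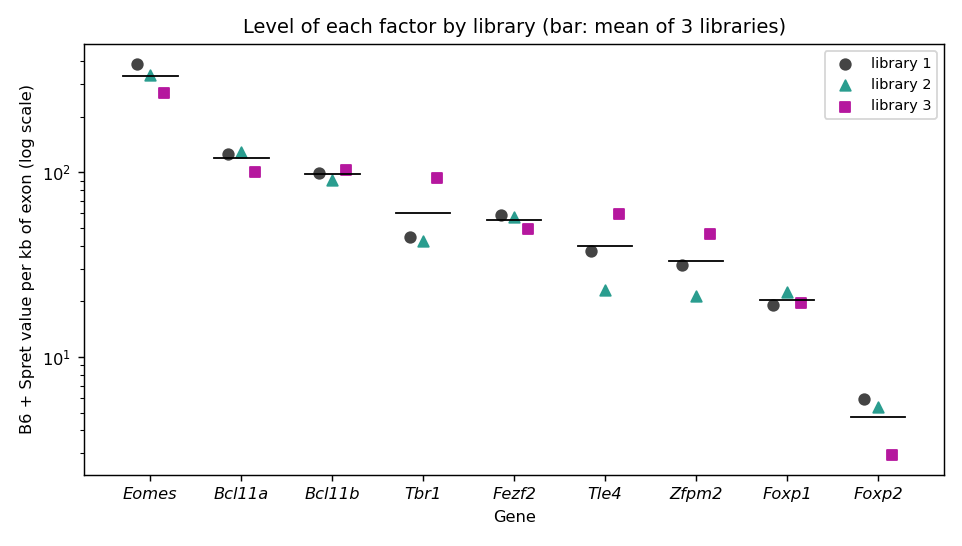
Level of each factor (sum of B6 and Spret values per kb of annotated exon, log axis) in libraries 1, 2 and 3, with the mean as a bar. Eomes is highest, at 269 to 388, and Foxp2 lowest, at 2.94 to 5.93, while Tbr1, Tle4, Zfpm2 and, by a small margin, Bcl11b (102 against 91.4 and 99.2) are highest in library 3.

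The libraries differed in how much of each factor they held. Of the corticothalamic markers, Tbr1, Zfpm2 and Tle4 were highest in library 3, while Foxp2, the factor of lowest level, was lowest there. In libraries 1, 2 and 3 the sum of alleles was 245, 234 and 508 for Tbr1, 300, 205 and 443 for Zfpm2 and 213, 131 and 339 for Tle4, each highest in library 3. Eomes went the other way at 1611, 1393 and 1117, and Bcl11a read 1663, 1704 and 1325. Foxp2 read 97, 88 and 48, lowest in library 3 like Eomes and Bcl11a. As a share of the library's summed values, the highest library exceeded the lowest 1.84-fold for Tbr1, 1.72-fold for Zfpm2, 2.06-fold for Tle4, 1.62-fold for Eomes, 1.62-fold for Bcl11a and 2.31-fold for Foxp2. Bcl11b, Fezf2 and Foxp1 varied less, at 1.12-fold, 1.45-fold and 1.46-fold, each highest in library 2 and lowest in library 3 as a share.

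Each library is a single sample, so these differences have no test. In bulk RNA, fewer cells of a type and less RNA per cell cannot be told apart. Other markers moved between the same libraries. The projection neuron list of 7 genes made up 0.397%, 0.438% and 0.344% of the summed values in libraries 1, 2 and 3, the Cajal-Retzius list 0.0481%, 0.0332% and 0.0378%, and the hem and choroid plexus list 0.0724%, 0.0228% and 0.0121%. Most of the projection neuron share came from the general neuronal genes Map2 and Tubb3. The part of these cells in the levels of the 9 factors was not tested.

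Between alleles, 5 of the 9 factors passed the test. Eomes, Bcl11a, Bcl11b and Zfpm2 were higher from B6 and Fezf2 was higher from Spret, each in 3 of 3 libraries, by 1.20-fold to 1.42-fold. Over all tested autosomal genes 28.4% were called, 20.7% higher from B6 and 7.78% higher from Spret. The median size of the log2 ratio was 0.31 for the 9 members and 0.29 for tested autosomal genes. With centred ratios 3 members were called toward B6 and 2 toward Spret, where 13.5% and 13.3% of autosomal genes were called. The calls were made by limma on log2(value + 1) with alleles paired in a library, and adjusted over 15985 genes.

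**Figure D2:**
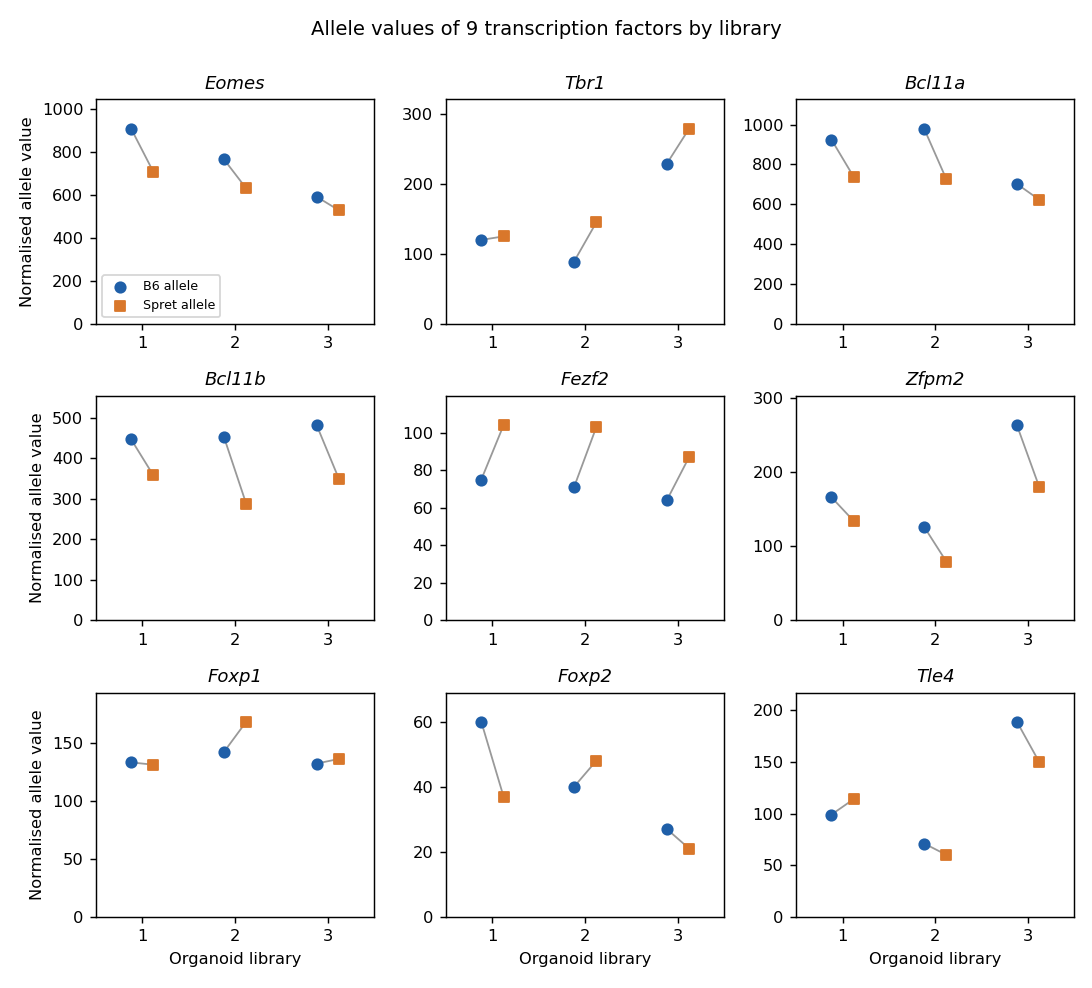
Normalised values of the B6 allele (blue circles) and Spret allele (orange squares) of each factor in libraries 1, 2 and 3, with lines joining the alleles of a library and each axis starting at 0. For Bcl11b all 3 B6 values lie above the highest Spret value of 358, and for Fezf2 all 3 Spret values lie above the highest B6 value of 75.

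Eomes, the factor of intermediate progenitors, lies on chromosome 9 (118478212 to 118486132, + strand, mm10). It read 906, 764 and 590 from B6 and 705, 629 and 527 from Spret in libraries 1, 2 and 3. B6 was higher in every library, but the alleles' ranges overlapped because the level itself differed between libraries. The log2 ratio of Spret to B6 was -0.27 ± 0.06 (SE, adjusted p = 0.00426), and Spret made up 45.4% ± 1.72 of the sum (SD, n = 3). The call ended with centred ratios, at -0.14 and an adjusted p = 0.0945, and without library 1, at -0.22 and an adjusted p = 0.0871. The antisense gene Gm33460 shares 118 exon bases with Eomes and read 74.3 ± 23.0 from B6 and 81.3 ± 4.73 from Spret (SD, n = 3). Counting by strand is not stated, so reads of such a pair cannot be told apart.

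Tbr1, the T-box factor of early neurons, lies on chromosome 2 (61802930 to 61814114, + strand). It read 120, 89 and 229 from B6 and 125, 145 and 279 from Spret. Spret was higher in 3 of 3 libraries, by little in library 1 and most in library 2. The ratio of 0.35 ± 0.13 (SE) did not pass, at an adjusted p = 0.0545. It passed with centred ratios, at 0.47 and an adjusted p = 0.0122, and with a pseudocount of 5, at 0.34 and an adjusted p = 0.0437. Without library 2 it was 0.17 with an adjusted p = 0.350. The direction of Tbr1 was therefore opposite to that of its relative Eomes in each library, although Tbr1 alone was not called on the deposited scale.

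Fezf2, the zinc finger factor of subcerebral neurons, lies on chromosome 14 (12342094 to 12348189, - strand). It read 75, 71 and 64 from B6 and 104, 103 and 87 from Spret. The alleles did not overlap, and the Spret share was nearly the same in the 3 libraries, at 58.1%, 59.2% and 57.6%. The log2 ratio was 0.48 ± 0.15 (SE, adjusted p = 0.0236) and rose to 0.60 with centred ratios (adjusted p = 0.00645). Leaving out library 1, 2 or 3 left it at 0.48, 0.45 and 0.50 but ended the call, at adjusted p = 0.111, 0.0784 and 0.0823. Non-overlapping alleles were seen in 2 of the 9 members and in 23.8% of tested autosomal genes.

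Bcl11b, a zinc finger factor of subcerebral neurons, lies on chromosome 12 (107910403 to 108003602, - strand). It read 447, 453 and 482 from B6 and 358, 288 and 349 from Spret, with no overlap. The ratio of -0.48 ± 0.08 (SE, adjusted p = 0.000352) had the smallest p of the 9, and it was called with centred ratios (-0.36, adjusted p = 0.00351) and without each library in turn. Fezf2 and Bcl11b thus leaned to opposite alleles in all 3 libraries. Its paralogue Bcl11a, on chromosome 11 (24078056 to 24174123, + strand), read 925, 979 and 702 from B6 and 738, 725 and 623 from Spret. Its B6 value was higher in each library, and its values overlapped only through the lower level of library 3. The ratio of Bcl11a was -0.31 ± 0.06 (SE, adjusted p = 0.00156), or -0.19 with centred ratios (adjusted p = 0.0340). Its antisense partner 4930538E20Rik shares 316 exon bases with it and read 155, 161 and 115 from B6 and 151, 156 and 94 from Spret, with a ratio of -0.12 ± 0.12 (SE) that did not pass (adjusted p = 0.464).

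Zfpm2, a co-factor of GATA proteins that marks corticothalamic neurons, lies on chromosome 15 (40655035 to 41104592, + strand). It read 166, 126 and 263 from B6 and 134, 79 and 180 from Spret. B6 was higher in each library while the level differed more between libraries than between alleles. The ratio of -0.51 ± 0.12 (SE, adjusted p = 0.00412) was the largest in size among the 9 on the deposited scale, and stood at -0.38 with centred ratios (adjusted p = 0.0222). Without library 3, the library with most Zfpm2, the ratio was -0.49 and the adjusted p = 0.0539. An unclassified transcript inside the gene body, Gm49526, shares no exon base with Zfpm2 and had a ratio of 0.19 ± 0.26 (SE, adjusted p = 0.609).

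The other 3 factors were not called and changed side between libraries. Tle4, a Groucho-type co-repressor on chromosome 19 (14448150 to 14598051, - strand), read 99, 71 and 189 from B6 and 114, 60 and 150 from Spret. Spret was higher in library 1 and B6 in libraries 2 and 3. Its ratio was -0.12 with a 95% interval from -0.43 to 0.18 (adjusted p = 0.556), and 0.00 with centred ratios. Foxp1, a forkhead factor on chromosome 6 (98925338 to 99522721, - strand), read 133, 142 and 132 from B6 and 131, 168 and 136 from Spret. Its ratio of 0.09 had an interval from -0.16 to 0.34 (adjusted p = 0.612). The coding gene Gm20696, which shares 300 exon bases with Foxp1 on the same strand, read 22, 20 and 24 from B6 and 27, 22 and 32 from Spret, without a call (adjusted p = 0.477). Foxp2, also a forkhead factor, lies on chromosome 6 as well (14901349 to 15441977, + strand) and read 60, 40 and 27 from B6 and 37, 48 and 21 from Spret. Its ratio of -0.26 had the widest interval, from -0.78 to 0.26 (adjusted p = 0.460), at the lowest level of the 9. These intervals are not adjusted for the number of genes and still allow differences as large as those called in Eomes.

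**Figure D3:**
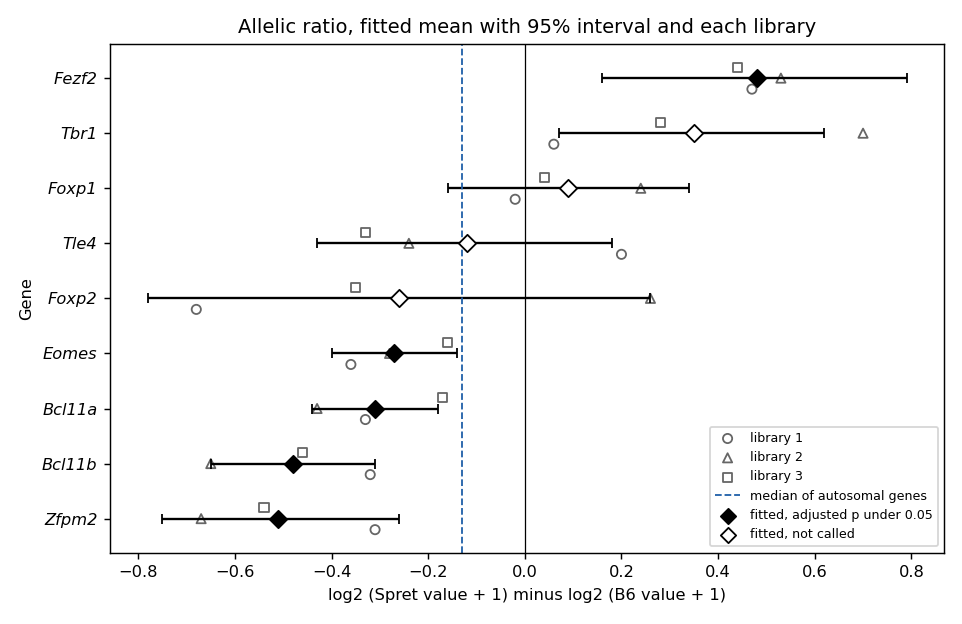
Allelic ratio of each factor, on the log2 scale with a pseudocount of 1 (above 0: more Spret), with the fitted mean (diamond), its 95% interval and the 3 libraries (grey symbols). Filled diamonds passed an adjusted p of 0.05, and the dashed line marks the autosomal median of -0.13. Fezf2 lies at 0.48 and Zfpm2 at -0.51.

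Genes beside the members on the chromosome were read for their own allelic ratios. The nearest tested coding gene on each side of the 9 members gave 18 genes, of which 4 were called toward B6, 2 toward Spret and 12 toward neither, where 20.7% and 7.78% of tested autosomal genes were called toward B6 and Spret. Psmd14, a proteasome subunit that ends 2.55 kb before Tbr1 on the same strand, read 177, 179 and 170 from B6 and 231, 251 and 231 from Spret. Its ratio of 0.44 ± 0.09 (SE, adjusted p = 0.00284) had the sign of Tbr1, and its part in the Tbr1 ratio was not tested. Around Fezf2 the neighbours differed in sign. Gm49355 at 17.6 kb had a ratio of 0.95 ± 0.23 (SE, adjusted p = 0.00538), and Cadps, a vesicle release protein gene at 24.4 kb, had -0.31 ± 0.07 (SE, adjusted p = 0.00296). The call of Gm49355 ended without library 3 (0.77, adjusted p = 0.0882), and that of Cadps ended with centred ratios (-0.19, adjusted p = 0.0503) and without library 1 (-0.28, adjusted p = 0.0538).

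Neighbours of the members called toward B6 were mixed. Vrk1, a kinase gene 1833 kb from Bcl11b, had -0.99 ± 0.10 (SE, adjusted p = 2.58e-06), while Setd3 on its other side had -0.14 ± 0.08 and did not pass (adjusted p = 0.200). Beside Eomes, Golga4 at 20.1 kb had -0.02 ± 0.05 (adjusted p = 0.782) and Cmc1 at 328 kb had -0.85 ± 0.22 (adjusted p = 0.00799), with its call lost without library 1 (-0.82, adjusted p = 0.0872). The neighbours of Bcl11a, Papolg and 5730522E02Rik, had 0.10 ± 0.12 and -0.00 ± 0.16 (SE), and those of Zfpm2, Lrp12 and Oxr1, had -0.06 ± 0.11 and -0.23 ± 0.09, all uncalled, although Oxr1 passed without library 2 (-0.32, adjusted p = 0.0375). Of the 2 neighbours of Tle4, Psat1 was called toward B6 (-0.35 ± 0.12, adjusted p = 0.0380), and lost its call with centred ratios (-0.23, adjusted p = 0.174) and without library 1, 2 or 3 (adjusted p = 0.0997, 0.100 and 0.188). The neighbours of Foxp1 and Foxp2 were uncalled, but 2610001J05Rik beside Foxp2 passed with centred ratios (0.68, adjusted p = 0.0313).

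**Figure D4:**
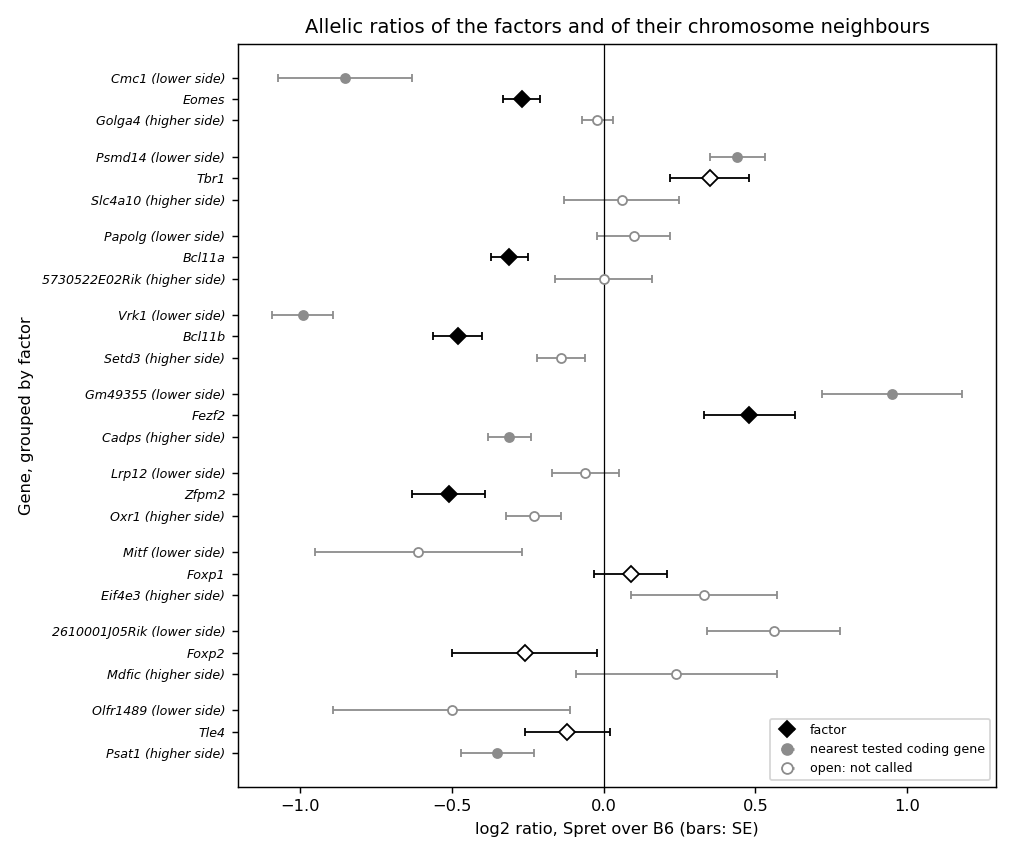
Log2 ratio of Spret to B6 (bars: SE) for each factor (black diamonds) and the nearest tested coding gene on its lower and higher coordinate side (grey circles), with open symbols for genes that were not called. Bcl11a, at -0.31, lies between neighbours at 0.10 and -0.00, and Fezf2, at 0.48, between neighbours at 0.95 and -0.31.

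Relatives of the 9 factors were read as a list of 17 genes, of which 9 were tested. The call went to B6 in 4 and to Spret in 0, with 3 and 1 when centred, and the median ratio was -0.40. Over tested autosomal genes these shares were 20.7% and 7.78%, or 13.5% and 13.3% when centred, with a median of -0.13. One of the 4, Foxp3, lies on chromosome X and was listed at 0 from Spret in each library, which the autosomal comparison does not cover. Among relatives of Tle4, Tle1 had a ratio of -0.60 ± 0.07 (SE, adjusted p = 1.63e-05) and Tle3 had -0.36 ± 0.09 (adjusted p = 0.00607), while Tle2, Tle5 and Tle6 stood at -0.15, 0.15 and -0.44 without a call. With centred ratios Tle3 was lost (-0.24, adjusted p = 0.0541) and Tle5 was called toward Spret (0.28, adjusted p = 0.0180), and Tle3 was also lost without library 1 (-0.28, adjusted p = 0.107). Foxp4, a forkhead relative of Foxp1 and Foxp2, had -0.48 ± 0.11 (SE, adjusted p = 0.00435), and -0.42 without library 3 (adjusted p = 0.0579). The T-box gene Tbx6 and the relative of Zfpm2, Zfpm1, had ratios of -0.40 and -0.04 without a call, and 7 of the 16 relatives in the table, Fezf1 and Tbx21 among them, were too low to test.

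Other genes of the same lineage are read against the autosomal shares of 20.7% called toward B6 and 7.78% toward Spret, or 13.5% and 13.3% when centred. Calls went in both directions in each of the 4 lists. Of 18 tested companions of Eomes in intermediate progenitors, 6 were called toward B6 and 3 toward Spret, with a median ratio of -0.11 against -0.13 for autosomal genes. Rnd2, a GTPase of migrating neurons, had -0.35 ± 0.08 (SE, adjusted p = 0.00395), and Neurod1, a bHLH factor, read 206 ± 32.0 from B6 and 283 ± 35.0 from Spret (SD, n = 3), a ratio of 0.46 ± 0.09 (SE, adjusted p = 0.00116). Igsf8 and Unc5d had -0.70 and -0.36, and Chd7 and Sstr2 had 0.26 and 0.99. Rnd2 lost its call without library 1 (-0.32, adjusted p = 0.0898) or 2 (-0.26, adjusted p = 0.0544), and so did Chd7 (0.27 and 0.17, adjusted p = 0.103 and 0.133). Of 22 tested deep layer companions, 6 were called toward B6 and 4 toward Spret, with a median of -0.12. Lmo3, a LIM-only co-factor, had the ratio farthest from 0 of the deep layer genes named toward B6, at -1.26 ± 0.11 (SE, adjusted p = 4.74e-07), with Nfia at -0.51 and Nfib at -0.12. The Nfib ratio turned to 0.01 when centred (adjusted p = 0.941) and was -0.10 and -0.09 without library 2 or 3 (adjusted p = 0.175 and 0.188). Toward Spret stood Ephb1, a guidance receptor gene (0.55), Nr4a2, a nuclear receptor (0.51), and Pcp4 (0.93). Without library 1 these calls ended, at adjusted p = 0.0540, 0.0688 and 0.0842, and that of Nr4a2 also ended without library 2 or 3 (adjusted p = 0.0610 and 0.0824).

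Of 20 tested upper layer companions, 8 were called toward B6 and 3 toward Spret, with a median of -0.27. The autosomal shares were again 20.7% and 7.78%, with a median of -0.13. Pou3f3, a POU factor, had -0.33 ± 0.05 (SE, adjusted p = 0.000124), Ptn, a secreted growth factor, had -0.45 and Unc5d, listed here too, had -0.36. Cux1, a homeodomain factor, had 0.33 ± 0.08 (SE, adjusted p = 0.00441), with Cdh13 at 0.35 and Mdga1 at 0.66. Cux1 lost its call without library 1 (0.29, adjusted p = 0.0764). Of 15 general genes of excitatory cortical neurons, 5 were called toward B6, among them Tubb3 (-0.43), and 3 toward Spret, among them Slc17a7, the vesicular glutamate transporter VGLUT1 (0.45). Map2 and Nsg1 had 0.10 and 0.23, and Neurod6 and Mapt had -0.13 and -0.12. Map2, Neurod6 and Mapt lost their calls whichever library was left out (adjusted p from 0.0663 to 0.204), Nsg1 without library 2 or 3 (0.100 and 0.0874) and Slc17a7 without library 1 or 3 (0.143 and 0.0886). With centred ratios the counts for B6 and Spret were 5 and 4 in intermediate progenitors, 5 and 4 in deep layers, 5 and 3 in upper layers and 2 and 3 in general neuron genes, and Neurod6 and Mapt, both at -0.00, lost their calls (adjusted p = 0.969 and 0.996).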

How the data were processed

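RNA of 3 organoid libraries was measured after ribosomal RNA depletion, per the labels' protocols. The deposited table holds a score: allele-specific read numbers per gene that the authors normalised, per its name. The values are whole numbers. Per the submitters' processing notes, reads were placed on mm10. The aligner, allele assignment, counting and use of strand are not given in the sources used here. Columns were tied to libraries by the library names in the labels.

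Gene names were matched to GENCODE M21 (GRCm38) and, where missing there, to RefSeq of the same assembly, which gave 43519 of 44260 genes a position. A log2 ratio is the Spret minus the B6 logarithm after adding a pseudocount of 1, a scale that understates differences of low genes. The 15985 genes with a mean of at least 10 over the 6 columns were fitted by limma 3.58.1 (R 4.3.3) on allele with library as a block, letting the prior variance follow intensity (2 residual and 12.3 prior degrees of freedom). The two-sided p-values were Benjamini-Hochberg adjusted, and genes under 0.05 were called. The fit with centred ratios was run on simulated data, with the outcome not given here. The setting of the main calls, on the deposited scale, was not run that way. Alleles are paired because they were read from the same RNA. Deviations from the allele means correlated at 0.205, 0.435 and 0.55 within libraries 1, 2 and 3, across autosomal genes.

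Genes named besides the members were, by rule, the called genes of highest sum in each of 5 lists (up to 3 per direction), tested relatives, up to 2 tested overlapping genes and the nearest tested coding genes. The members and lists were chosen with earlier results of these data known. Sequences came from GENCODE and RefSeq through Python 3.11.15. No table of proteins was used. There were 10 alternative settings. Some items are not reported here.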

Additional observations from a re-analysis of the deposited data

How the results depend on the processing

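Directions of the 5 called factors held under all 10 alternatives, but their calls depend on the error model. Of 4 factors called toward B6 and 1 toward Spret, 0 and 0 were called with no filter on low values, with no intensity trend and with no replicate block, where the alleles of a library are not paired. The adjusted p-values of those 5 then lay between 0.0586 and 0.462. Over all genes 4852 were called, against 1236 with no filter, 2229 with no intensity trend and 1537 with no replicate block. Factors called toward Spret numbered 2 with a pseudocount of 5 and 2 with centred ratios, through Tbr1. Leaving out a library in turn left 0 factors toward Spret each time, from 3 to 4 toward B6, and from 2667 (without library 1) to 4001 genes in all. Foxp2 was below the filter at a mean of at least 50. Nfib, of the companion genes, turned to 0.01 with centred ratios. Of the 33 other named genes that were called, 9 were still called with no filter, 9 with no intensity trend and 7 with no replicate block. The cause of these changes was not tested. How many reads lie behind each value is not known, which limits statements on Foxp2 and the other low genes most.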

Other observations

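A few further genes of the companion lists stood out and were chosen after their values were seen. Crym, a thyroid hormone binding protein used as a deep layer marker, read 5, 17 and 3 from B6 and 38, 28 and 44 from Spret in libraries 1, 2 and 3, a ratio of 2.29 ± 0.44 (SE, limma adjusted p = 0.00113). Its sum was nearly constant at 43, 45 and 47, while its ratio in library 2 was 0.69 against 2.70 and 3.49 in the others. The B6 values of Crym were low, with a mean of 8.33 against 36.7 from Spret, so the size of its ratio is uncertain. Insm1, a zinc finger factor of intermediate progenitors, read 183, 194 and 162 from B6 and 84, 82 and 78 from Spret, with -1.13 ± 0.12 (SE, limma adjusted p = 4.61e-06). Because Crym and Insm1 were picked by their values, their p-values are descriptive only. Results without a library or with no filter on low values are not given for them.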
